A study of Lupinus micranthus with 18 samples.

Results

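Unigenes that moved in opposite directions in seedlings of different seed origin after 72 h of drought numbered 148 of the 81470 in the deposited table. A unigene is an assembled transcript unit, used here without a genome, a name or a function, so members are given by identifier. They were chosen on levels in CPM, the counts of a unigene per 1000000 counts of its library, and on L, which is log2(group mean CPM + 1). A member had a mean below 200 CPM over all 18 libraries, and its L at 72 h lay at least 1 above untreated leaves in 1 origin and at least 1 below them in the other. The rule allowed 150 members, which was not reached. Of the 148, 71 were higher at 72 h in Iceland and lower in America and are called Iceland-up, and 77 were higher in America and lower in Iceland and are called America-up.

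The material was leaf RNA of Lupinus micranthus, a lupin of the legume family. Seedlings came from America seeds or Iceland seeds and were left untreated or kept under drought imposed with polyethylene glycol (PEG) for 24 h or 72 h. This gives 6 groups of 3 libraries: America untreated, America PEG 24 h, America PEG 72 h, Iceland untreated, Iceland PEG 24 h and Iceland PEG 72 h. The labels give no accession, genotype or age, no hours for the untreated seedlings, and do not state if each replicate was a plant of its own. The p-values therefore cover variation among these libraries, some or all of which may be technical.

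PEG is an osmolyte that lowers the water potential around roots without entering the plant in quantity, and seedlings so treated take up less water. Plants answer such stress through abscisic acid and through routes that do not need it, by closing stomata, making compatible solutes and protective proteins, and lowering growth and photosynthesis. A response with opposite signs in plants of different origin is an interaction of origin and treatment. It does not require that the origin with the higher level changes. In a transcript assembly, alleles and close copies of a gene can each form a unigene of their own, and the deposited identifiers do not tell these apart.

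Library totals lay between 9603068 and 12605500 counts. A count of 0 in 1 library therefore allowed a level of up to 0.238 to 0.312 CPM (3 counts), a limit that covers counting error only. Identifiers carry no names, so the leaf label was not checked against marker genes. The median unigene of the 30895 that passed a filter on low counts stood 0.20 higher in L at 72 h than untreated in each origin, and after TMM scaling, a correction for the makeup of each library, the medians were 0.004 and 0.02 in log2 fold change. Under TMM scaling 84 unigenes met the rule as Iceland-up and 71 as America-up, and 125 of the 148 members were among them. Untreated Iceland replicate 3 stood apart, with a mean correlation of log2(CPM + 1) over unigenes of 0.928 with the other two untreated Iceland libraries and 0.888 with the Iceland PEG libraries, against 0.837 and 0.826 with the PEG libraries for replicates 1 and 2. In bulk leaf RNA, fewer cells of a type and less RNA per cell cannot be told apart.

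Opposite responses were a small part of the strong ones. Of the unigenes below 200 CPM on average, 4701 differed by at least 1 in L between 72 h and untreated leaves in both origins, with 2839 higher in both, 1714 lower in both and 148, or 3.15%, opposite. In the Iceland-up members the median response was 2.45 in Iceland (1.02 to 6.20) and -1.54 in America (-4.29 to -1.001). In the America-up members it was 1.42 in America (1.00 to 3.20) and -1.48 in Iceland (-5.91 to -1.01). These values chose the members and describe them.

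**Figure D1:**
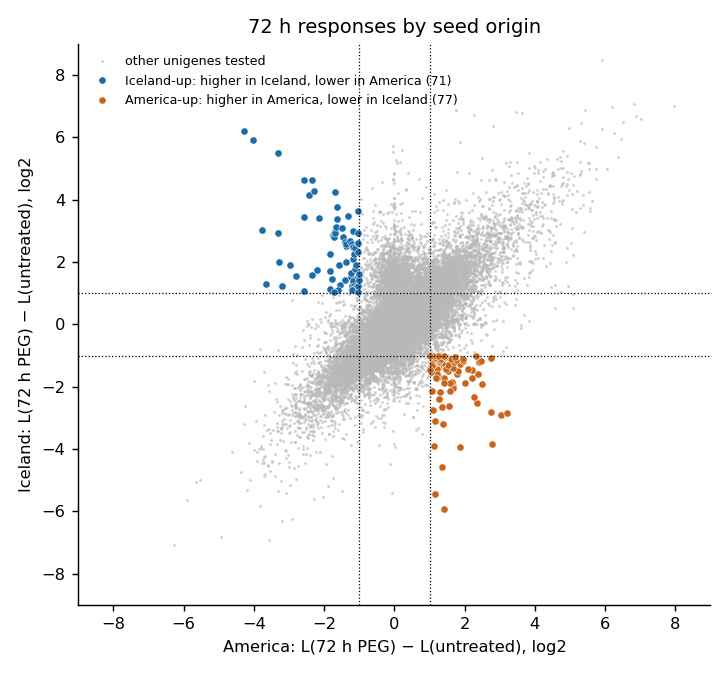
Difference in L (log2 of group mean CPM + 1) between 72 h of PEG and untreated leaves in America (x axis) and in Iceland (y axis), 1 point per unigene. Grey points are the other unigenes that passed the filter, blue points the 71 Iceland-up and orange points the 77 America-up members, and dotted lines mark differences of 1 and -1. Most grey points lie along the rising diagonal, and the members fill the upper left and lower right corners.

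The limit of the rule fell among unigenes of low level. The last Iceland-up member inside it, Unigene0013575, stood at 2.54, 2.07 and 1.47 CPM in untreated America leaves and 0.588, 0.384 and 0.563 CPM at 72 h, a response of -1.0008. In Iceland it went from 0.673, 1.06 and 1.17 to 6.38, 5.53 and 3.06 CPM, and its libraries did not overlap in either origin. Unigene0045353, just outside with -0.9981 in America, stood at 0, 0 and 3.76 CPM there untreated and 0, 0.384 and 0 CPM at 72 h, so that 1 library carried its untreated level. Its Iceland libraries held 0 in each library untreated and 3.93, 4.30 and 0.270 CPM at 72 h. The last America-up member, Unigene0072586, held 0, 0 and 4.95 CPM in untreated America leaves and 1.26, 6.15 and 5.55 CPM at 72 h. In Iceland it held 3.11, 0 and 0 CPM untreated and 0 in each library at 72 h. Its neighbour outside the limit, Unigene0076385, held 0, 0 and 2.11 and 2.69, 4.80 and 4.10 CPM in America and 3.20, 0 and 0 and 0, 0.102 and 0 CPM in Iceland. Its Iceland response was -0.9979, and again a single untreated library in each origin held counts.

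Members were low in abundance and often missing from whole libraries. Their mean over 18 libraries ranged from 0.408 to 186.1 CPM with a median of 2.46, against a median of 5.82 CPM for all unigenes that passed the filter. Of the 148, 98 lay under 5 CPM, 37 between 5 and 20, and 13 at 20 or more. Only 14 members reached 1 CPM in all 18 libraries (9.46%, against 55.6% of the unigenes that passed the filter), 59 did so in 7 to 17 libraries, and 75 in 6 or fewer (50.7% against 19.0%). Member length, worked out from the deposited FPKM, ranged from 243 to 7645 bases with a median of 1234, against 1362 for all unigenes that passed. All 148 members passed that filter, which uses the libraries of the rule.

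The members were not independent of one another: many shared 1 profile across libraries, with counts in a few libraries and almost none in the rest. Members were grouped by the correlation of log2(CPM + 1) over the 12 untreated and 72 h libraries, with average linkage and a limit of 0.85, a grouping chosen after the values were seen. It gave 6 sets of 5 or more members, of 32, 18, 10, 9, 6 and 5, which held 80 members, 43 Iceland-up and 37 America-up. Each set held 1 direction only. The sets were formed from the libraries of the rule, so their profiles there are a description. The 24 h libraries entered neither the responses of the rule nor the grouping.

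**Figure D2:**
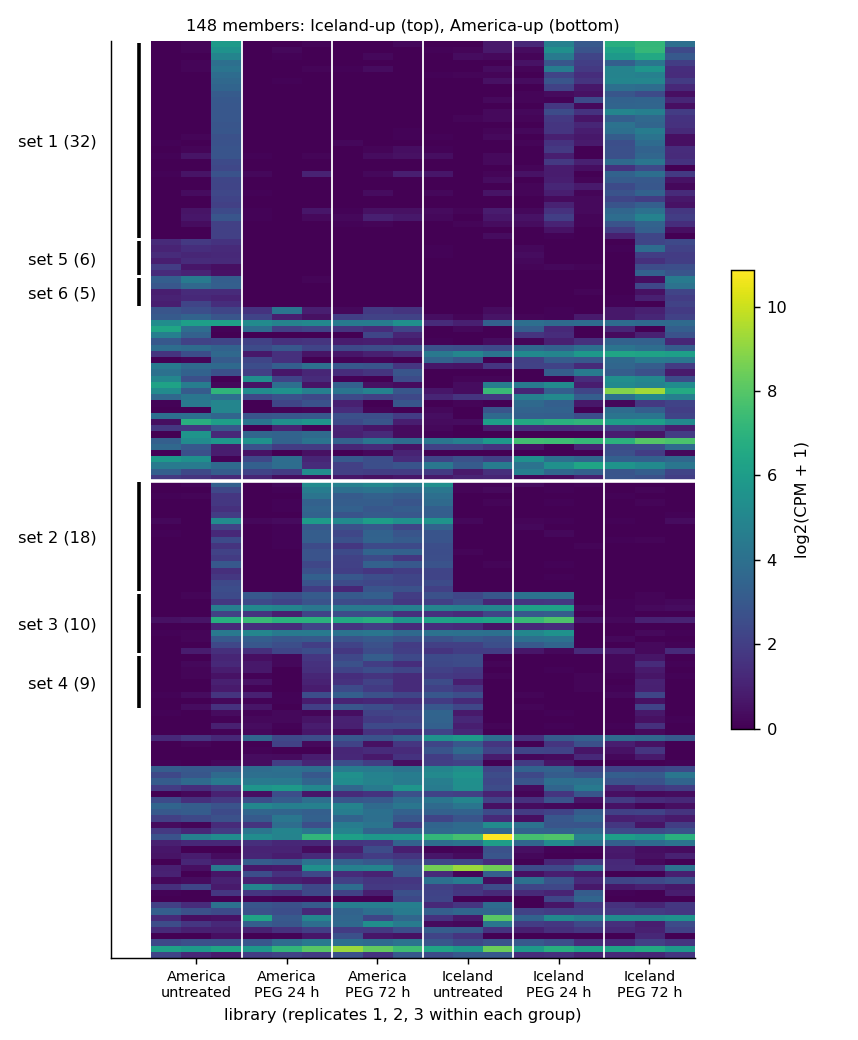
Levels of the 148 members as log2(CPM + 1), 1 row per member and 1 column per library, with replicates 1 to 3 from left to right in each of the 6 groups. Iceland-up members are above the thick line and America-up members below it, and black bars mark the 6 sets with their sizes. Within the sets, neighbouring columns of 1 group change from dark to bright, as in untreated America, where replicate 3 alone is bright in set 1 and set 2.

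The largest set, set 1, held 32 of the 71 Iceland-up members. Its median level was 0, 0 and 6.10 CPM in replicates 1, 2 and 3 of untreated America, 0 in all 6 PEG libraries of America, 0, 0 and 0.195 in untreated Iceland and 9.18, 12.2 and 1.58 CPM in Iceland at 72 h. In untreated America all 32 members stood at 1 CPM or more in replicate 3 and none did in replicates 1 and 2, so that the untreated America means of the set rested on 1 library. In the Iceland 24 h libraries, which took no part in the choice, replicate 2 was the highest of the group for 30 of 32 members, and the set medians were 0.0924, 2.09 and 0.573 CPM. In America at 24 h 1 of the 32 reached 1 CPM, in replicate 3. Members of the set therefore varied together in libraries the rule had not used.

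The set was led by the first members in the order of the rule, Unigene0067652 and Unigene0050089. In America Unigene0067652 stood at 0, 0.0940 and 58.7 CPM untreated, at 0, 0 and 0.0968 after 24 h and at 0, 0 and 0.161 after 72 h. In Iceland it stood at 0, 0 and 0.683 CPM untreated, at 1.29, 25.3 and 7.08 after 24 h and at 110.3, 143 and 14.5 after 72 h. Unigene0050089 held 0, 0.0940 and 45.7 CPM in untreated America leaves, 0, 0.164 and 0 after 24 h of PEG there and 0 in each library after 72 h. Untreated Iceland leaves held 0.0841, 0.0961 and 0.683 CPM, those at 24 h 0.277, 41.4 and 5.83 and those at 72 h 77.6, 149.9 and 4.32. In both, untreated America replicate 3 stood far above replicates 1 and 2, Iceland libraries at 72 h spread widely with replicate 3 lowest, and Iceland 24 h replicate 1 was far below replicate 2. Both also belong to runs of 3 consecutive identifiers in set 1, Unigene0050089 to Unigene0050091 and Unigene0067651 to Unigene0067653, whose lowest pairwise correlation over 18 libraries was 0.984 and 0.960. Without untreated America replicate 3, 38 unigenes met the rule as Iceland-up, and 33 of the 71 members were among them.

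Set 2 held 18 America-up members with an on-or-off profile. Its median level was 0, 0 and 3.12 CPM in untreated America, 0, 0.0409 and 8.28 after 24 h and 5.38, 7.83 and 6.55 after 72 h. In Iceland it was 6.01, 0 and 0 CPM untreated and 0 in all 6 PEG libraries. All 18 members stood at 1 CPM or more in untreated America replicate 3, America 24 h replicate 3, the 3 America 72 h libraries and untreated Iceland replicate 1, and none did in any other library. In the 24 h libraries of America, which the rule did not use, the same split was seen, with all 18 members at 2.90 CPM or more in replicate 3 and at most 0.246 CPM in replicates 1 and 2. Without untreated Iceland replicate 1, 49 unigenes met the rule as America-up, and 44 of the 77 members were among them.

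Sets 3 and 4 were America-up too, with other libraries switched. In set 3, of 10 members, the median was 0, 0.0470 and 4.22 CPM in untreated America and 5.33, 6.24 and 3.01 CPM at 72 h, and in Iceland 4.25, 4.51 and 5.42 untreated, 11.0, 13.1 and 0 at 24 h and 0.0874, 0.154 and 0.0901 at 72 h. Thus the set was near 0 in 2 of 3 untreated America libraries, in Iceland 24 h replicate 3 and in all Iceland 72 h libraries. The level of Unigene0017352 in America was 0, 0 and 23.8 CPM untreated, 32.7, 28.6 and 18.8 at 24 h and 20.2, 20.6 and 24.6 at 72 h. Its Iceland level was 27.8, 25.3 and 29.9 CPM untreated, 73.0, 73.2 and 0.208 at 24 h and 0.0874, 0.205 and 0.270 at 72 h. Unigene0054348, named by the same comparison of 72 h with 24 h in Iceland, held 16.2, 15.9 and 0 CPM at 24 h and 0, 0.102 and 0 CPM at 72 h there. Its America libraries held 0, 0.0940 and 4.49 untreated, 6.91, 5.08 and 7.65 after 24 h and 7.31, 8.83 and 2.97 CPM after 72 h, and its untreated Iceland libraries 5.38, 4.03 and 6.44 CPM. In both, Iceland 24 h replicate 3 sat with the 72 h libraries and apart from the other two 24 h libraries.

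Set 4, of 9 members, had medians of 0, 0.0940 and 0.917 CPM in untreated America, 0.461, 0 and 1.74 at 24 h and 3.95, 3.46 and 1.69 at 72 h, and of 4.12, 2.59 and 0 in untreated Iceland. At 24 h in Iceland its 9 members stood at 0.104 CPM or less in all 3 libraries, and at 72 h replicate 2 alone reached a median of 0.921 CPM. For Unigene0073823, the America libraries gave 0, 0 and 1.19 CPM untreated, 0.369, 0.164 and 2.32 at 24 h and 3.95, 8.26 and 4.34 at 72 h. The Iceland libraries gave 4.46, 4.80 and 0 CPM untreated, 0 in each library at 24 h and 0.175, 0.512 and 0 at 72 h. Unigene0076334, America-up and in a smaller set of 4, stood at 9.92, 1.34 and 0 CPM in untreated Iceland and 0 in each library at 24 h. At 72 h in Iceland it held 0, 0.409 and 0.0901 CPM. Its America libraries held 0, 0 and 0.0917 untreated, 0.184, 0.164 and 0.484 after 24 h and 1.01, 2.59 and 3.22 CPM after 72 h, low in both earlier groups and higher in each 72 h library.

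The Iceland-up sets 5 and 6 were present in every untreated America library and almost absent from America under PEG. In set 5, of 6 members, untreated America medians were 1.47, 1.36 and 1.42 CPM, and all 6 America PEG libraries held 0 counts for every member. Iceland at 72 h had medians of 0, 4.35 and 3.83 CPM, so that replicate 1 did not share the higher level. Untreated America leaves held 1.11, 1.69 and 1.47 CPM of Unigene0069552, followed by 0 in each library at 24 h and 0 in each library at 72 h. Iceland leaves had 0.0841, 0 and 0 CPM untreated, 0.185, 0 and 0 after 24 h and 0.0874, 13.2 and 3.42 after 72 h. In set 6, of 5 members, untreated America medians were 1.03, 3.67 and 1.65 CPM, and Iceland medians at 72 h were 0, 0.409 and 3.69 CPM, where replicate 3 was the highest for all 5. In America Unigene0074925 stood at 6.74, 11.8 and 8.62 CPM untreated, at 0 in each library after 24 h and at 0 in each library after 72 h. In Iceland it stood at 0 CPM in each library untreated, at 0 in each library after 24 h and at 0, 3.99 and 16.1 after 72 h. In America the untreated and PEG libraries of these members did not overlap, while in Iceland 1 or 2 of the 72 h libraries carried the higher level.

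**Figure D3:**
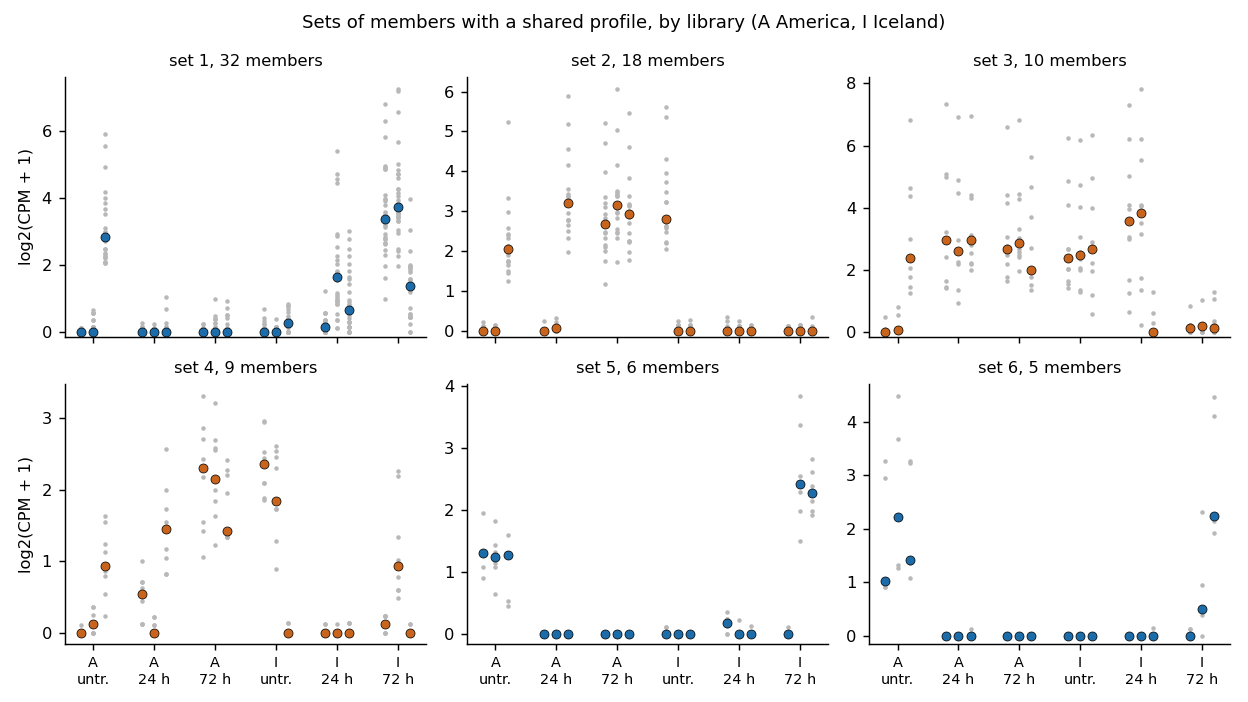
Levels of the members of sets 1 to 6 as log2(CPM + 1) (y axis, scaled to each panel) in the 18 libraries, grouped on the x axis by origin (A America, I Iceland) and treatment, with replicates 1 to 3 from left to right. Grey points are members and coloured points the median of the set, blue for Iceland-up and orange for America-up. Set 2 is at or near 0 in 12 libraries and stands apart from 0 in the other 6.

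Some members did part by treatment in both origins. In America untreated and 72 h libraries did not overlap in 83 members (background 52.8%), and in Iceland in 84 (background 53.8%). Untreated and 72 h libraries did not overlap in either origin in 31 members (20.9%), 12 Iceland-up and 19 America-up (background 35.2% of the unigenes that passed the filter, whatever their direction). In 105 members they did not overlap in 1 origin only (background 36.1%), and in 12 they overlapped in both (background 28.6%). The 68 members outside the 6 sets held 25 of the 31. By edgeR's quasi-likelihood test over all unigenes, 48 members passed at 72 h in America (background 36.4%) and 93 in Iceland (background 46.4%), and 16 of the 31 passed in both origins, 8 in each direction. The rule used these contrasts, so the counts describe the members. The share of all unigenes that parted and passed in both origins was not worked out, so the 16 are not read as many or few. Without America 72 h replicate 1, 2 or 3 the America count was 22, 24 or 25 (background 26.8%, 26.8% and 30.3%). Without untreated Iceland replicate 1 or Iceland 72 h replicate 1 the Iceland count was 55 or 56 (background 35.6% and 36.6%). In the test of the difference between the 72 h responses 20 members passed (background 0.693%). That count was 2 without untreated America replicate 2, America 72 h replicate 2, untreated Iceland replicate 2 or Iceland 72 h replicate 2. In these refits the background fell too, to 0.0181%, 0.0605%, 0.0243% and 0.0153%. The member count was 3 or 4 without America 72 h replicate 1 or 3 (background 0.0365% and 0.0728%) and 6 without untreated Iceland replicate 1 (background 0.189%). It was 39 without untreated America replicate 1 (background 1.63%) and 46 without untreated Iceland replicate 3 (background 2.23%).

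Among these 16, Unigene0060216 was the second Iceland-up member in the order of the rule. Unigene0060216 held 2.14, 4.98 and 11.7 CPM in untreated America leaves, 0.645, 1.80 and 0.484 after 24 h of PEG there and 0.588, 0.960 and 1.61 after 72 h. Untreated Iceland leaves held 19.5, 30.4 and 17.3 CPM, those at 24 h 34.4, 29.3 and 57.6 and those at 72 h 82.4, 74.7 and 68.8. All 9 Iceland libraries were above all 9 America libraries, and the mean went from 6.29 ± 4.93 to 1.05 ± 0.516 CPM in America and from 22.4 ± 7.05 to 75.3 ± 6.82 CPM in Iceland (SD, n = 3). Unigene0000830 came first in the order of the rule among the 8. The level of Unigene0000830 in America was 7.06, 3.39 and 3.76 CPM untreated, 3.32, 1.96 and 2.13 at 24 h and 0.756, 0.864 and 0.643 at 72 h. Its Iceland level was 0.0841, 0 and 0.293 CPM untreated, 0.0924, 0.959 and 1.87 at 24 h and 9.79, 9.42 and 1.26 at 72 h. It was highest in untreated leaves in America and at 72 h in Iceland, with Iceland 72 h replicate 3 well under the other two.

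The first America-up members in the order of the rule were also the first of their 8. For Unigene0014482, the America libraries gave 2.78, 1.69 and 2.93 CPM untreated, 50.3, 59.7 and 31.6 at 24 h and 11.1, 21.3 and 49.4 at 72 h. The Iceland libraries gave 22.0, 40.7 and 4.68 CPM untreated, 0.277, 10.5 and 20.8 at 24 h and 1.14, 2.25 and 2.97 at 72 h. Here all 3 America libraries at 24 h were above every untreated one, and the Iceland 24 h libraries spread from near 0 to above the 72 h level. Untreated America leaves held 0.238, 0.0940 and 1.56 CPM of Unigene0011604, followed by 2.12, 13.7 and 5.03 at 24 h and 22.4, 16.9 and 2.57 at 72 h. Iceland leaves had 10.3, 12.6 and 37.3 CPM untreated, 16.1, 6.36 and 6.14 after 24 h and 2.36, 0.512 and 2.88 after 72 h. In both unigenes the untreated Iceland libraries lay above the 72 h libraries. The spread at 72 h in America was wide, 27.3 ± 19.8 CPM for Unigene0014482 and 14.0 ± 10.2 CPM for Unigene0011604 (SD, n = 3).

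**Figure D4:**
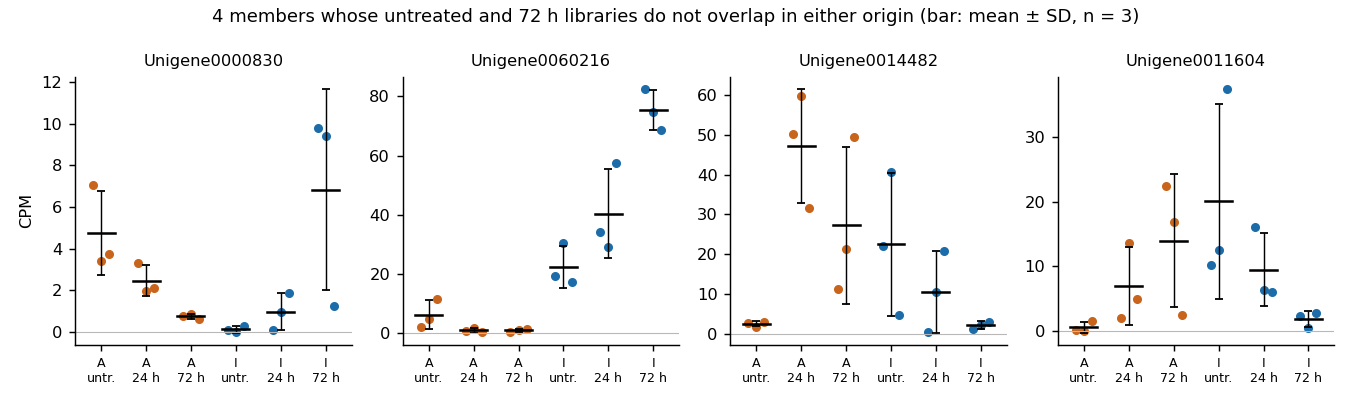
CPM (y axis, linear, scaled to each panel) of 4 members whose untreated and 72 h libraries do not overlap in either origin, by group (x axis, A America, I Iceland). Points are libraries, horizontal bars the group mean and whiskers 1 SD (n = 3). Unigene0060216 climbs across the Iceland groups to 68.8 to 82.4 CPM at 72 h and stays under 2 CPM in the America libraries under PEG.

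The most abundant members showed how far single libraries shaped a group mean. In America Unigene0001552 stood at 5.71, 25.5 and 37.4 CPM untreated, at 37.3, 27.9 and 143 after 24 h and at 71.4, 54.9 and 57.2 after 72 h. In Iceland it stood at 143, 199 and 1854 CPM untreated, at 199.8, 232 and 26.7 after 24 h and at 67.2, 50.9 and 118 after 72 h. This America-up member owed its untreated Iceland mean, 732 ± 972 CPM (SD, n = 3), mostly to replicate 3. Unigene0020711 held 73.9, 57.0 and 80.8 CPM in untreated America leaves, 55.1, 141 and 260.4 after 24 h of PEG there and 592, 307 and 177 after 72 h. Untreated Iceland leaves held 80.9, 54.7 and 337 CPM, those at 24 h 59.0, 110.3 and 73.1 and those at 72 h 78.4, 96.5 and 56.6. Its untreated Iceland libraries overlapped those at 72 h, while the 72 h libraries in America were all above the untreated ones. The level of Unigene0002184 in America was 36.9, 7.62 and 137 CPM untreated, 38.4, 45.0 and 24.8 at 24 h and 17.8, 27.2 and 6.51 at 72 h. Its Iceland level was 0.589, 0.288 and 161 CPM untreated, 1.20, 8.37 and 3.85 at 24 h and 454, 659.8 and 97.8 at 72 h. Untreated Iceland replicate 3 stood above 1 of the 72 h libraries in this Iceland-up member, and replicates 1 and 2 were under 1 CPM. For Unigene0035869, the America libraries gave 8.73, 37.0 and 50.9 CPM untreated, 44.9, 10.1 and 16.7 at 24 h and 9.49, 17.6 and 13.3 at 72 h. The Iceland libraries gave 18.4, 25.5 and 53.8 CPM untreated, 187, 180.0 and 154 at 24 h and 126, 253 and 218 at 72 h. In Unigene0035869 all Iceland libraries under PEG were above all untreated ones, and the America groups overlapped.

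In part of the members a single library carried the untreated group in which they were high. In 38 of the 71 Iceland-up members 1 library held over 80% of the summed CPM of untreated America, and in 34 of them this was replicate 3. In 29 of the 77 America-up members 1 library held over 80% of untreated Iceland, which was replicate 1 in 23 and replicate 3 in 6. In the 72 h group in which members were high this held for 6 Iceland-up members in Iceland and 2 America-up members in America. The same shares over all unigenes were not worked out. All 32 members of set 1 were highest in untreated America replicate 3, and all 18 of set 2 in untreated Iceland replicate 1. These counts are therefore not counts of independent cases. The rule was met without any 1 library, whichever was left out, by 12 Iceland-up and 13 America-up members, 25 in all (16.9%), of which 16 were among the 31 that did not overlap in either origin. Without untreated Iceland replicate 3, 68 of the 71 and 67 of the 77 members still met the rule.

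The same unevenness was present at 24 h, in libraries that took no part in the 72 h responses. Of the members with at least 1 CPM in a 24 h library, 120 of 148, 49 (40.8%) had within 1 group of 3 replicates both a library with 0 counts and a library at 1 CPM or more, against 5.22% of the 31180 unigenes of the whole table that reached 1 CPM in a 24 h library. Of the 49, 26 showed this in America. All 18 members of set 2 stood at 1 CPM or more in America 24 h replicate 3, and 17 of them had 0 counts in replicate 1. In set 3, 7 of 10 members had 0 counts in Iceland 24 h replicate 3. The members in these shares, also by level, are therefore not independent of one another. Members are of lower abundance than the table, so the shares were also compared by level. Between 0.5 and 5 CPM on average at 24 h they were 54.2% of 59 members and 6.80% of 13330 unigenes, and at 5 CPM or more 19.1% of 47 members and 0.447% of 16098 unigenes. In the fit to the 24 h libraries the median biological coefficient of variation, the relative spread between replicates beyond counting error, was 0.641 for the 63 members tested and 0.266 for all unigenes tested. Unlike the shares, these medians were not compared by level.

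The comparison of the origins at 24 h was the one test that shared no library with the 72 h responses. Of the choice of members, only the limit on mean CPM used these libraries. The test was fitted to the 6 libraries at 24 h alone, over all 25728 unigenes that passed the filter there. The filter kept 63 members, 23 Iceland-up and 40 America-up, and left 85 untested. Of the 63, 15 passed at an adjusted p of 0.05 (23.8%), against a background of 11.0%. Among the Iceland-up members 6 were higher in Iceland and 3 lower (background 7.37% and 3.67%), and among the America-up members 2 were higher in Iceland and 4 lower. The median log2 fold change, Iceland over America, was 1.32 for the Iceland-up members tested, -0.74 for the America-up members tested and -0.03 for all unigenes tested. The number that passed depended on the libraries, for members and background alike. It was 5 of 68 tested without Iceland 24 h replicate 2 (background 2.36%). Without America 24 h replicate 1, 2 or 3 it was 7 of 76, 8 of 79 or 12 of 79 (background 4.68%, 3.25% and 9.51%). Without Iceland 24 h replicate 1 or 3 it was 18 of 78 or 20 of 70 (background 5.91% and 9.4%).

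Without a filter, on L over all members, differences of at least 1 between the origins at 24 h were mostly in the direction of those at 72 h. In 27 of the 71 Iceland-up members Iceland was at least 1 higher in L at 24 h (background 7.03%) and in 7 at least 1 lower. In 32 of the 77 America-up members Iceland was at least 1 lower (background 5.99%) and in 5 at least 1 higher. The second count rested on a single library. It was 11 without America 24 h replicate 3, in which set 2 was present, and 14 with group medians in place of means. The 3 Iceland libraries at 24 h lay above the 3 America libraries without overlap in 23 Iceland-up members (32.4%, background 14.7%) and below them in 20 America-up members (26.0%, background 19.8%). The members share profiles, so these counts are not counts of independent events.

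**Figure D5:**
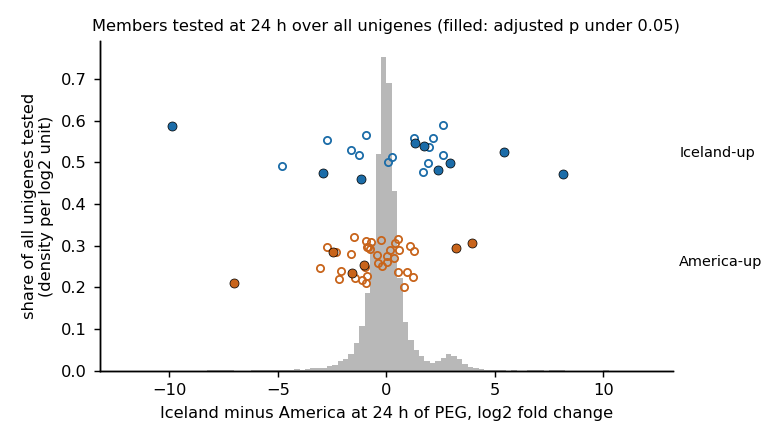
Log2 fold change between Iceland and America at 24 h of PEG (x axis) for all unigenes tested (grey histogram, left axis, density per log2 unit) and for the members tested, Iceland-up in blue and America-up in orange, with arbitrary vertical scatter. Filled points passed at an adjusted p of 0.05, 9 of 23 Iceland-up and 6 of 40 America-up members. Blue points lie mostly to the right of 0 and orange points mostly to the left.

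The members named at 24 h included 1 Iceland-up member, Unigene0072646, that was lower in Iceland than in America. Its 72 h libraries overlapped between the origins. Unigene0060216 was higher in Iceland, at 34.4, 29.3 and 57.6 CPM against 0.645, 1.80 and 0.484 CPM in America (log2 fold change 5.41 ± 0.50 SE, adjusted p = 0.00453 by edgeR), and passed in every alternative, with adjusted p up to 0.0348. Unigene0067652 was higher too, at 1.29, 25.3 and 7.08 CPM against 0, 0 and 0.0968, 1 count over the America group. The ratio was 389 with a 95% counting interval of 69.5 to 15430 (edgeR adjusted p = 0.0196), and the call was lost in 4 of the 6 refits that left out 1 library, with adjusted p from 7.17e-07 to 0.107 over all alternatives. Unigene0037649, an America-up member, was lower in Iceland, at 0.277, 0.174 and 0.104 CPM against 32.0, 24.9 and 25.4 CPM (log2 fold change -7.02 ± 0.32 SE, adjusted p = 0.00147 by edgeR), and it passed in every alternative, with adjusted p up to 0.0286. Unigene0072646, an Iceland-up member, had 0 counts in Iceland against 11.1, 10.1 and 12.5 CPM in America (edgeR adjusted p = 0.00445). Relative to 3 counts over the group it was 119-fold lower, with a lower 95% counting limit of 96-fold. It passed in every alternative, with adjusted p up to 0.0396.

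Untreated and 72 h levels of these last members put the 24 h values in place. Unigene0037649 held 10.3, 8.28 and 5.87 CPM in untreated America and 27.8, 12.7 and 18.2 at 72 h. In Iceland it held 12.6, 17.6 and 0.390 CPM untreated and 0.437, 0.102 and 0.360 at 72 h, so that its untreated Iceland replicate 3 was already at the low level of the PEG libraries. Unigene0072646 held 0, 47.6 and 1.38 CPM in untreated America, where replicate 2 carried the group, and 1.01, 1.44 and 0.241 at 72 h. Its Iceland libraries held 0.0841, 0 and 0 CPM untreated and 0.874, 0.512 and 2.79 at 72 h.

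In untreated leaves the origins differed in 23 members by edgeR (15.5%, background 5.08%), with Iceland lower in 10 and higher in 1 of the Iceland-up members and higher in 12 of the America-up members. The rule used these libraries. The count was 13 without untreated America replicate 1 (background 2.53%) and 9 without replicate 2 (background 1.94%). It was 13 without untreated Iceland replicate 1 or 2 (background 2.47% and 2.11%). Without untreated America or Iceland replicate 3 it was 27 or 33 (background 2.61% and 7.79%). Untreated America leaves held 0 CPM of Unigene0003711 in each library, followed by 0.0921, 0 and 0 at 24 h and 1.26, 1.54 and 1.53 at 72 h. Iceland leaves had 5.97, 12.5 and 3.51 CPM untreated, 3.79, 3.57 and 0.521 after 24 h and 0.437, 2.15 and 0 after 72 h. In America Unigene0007334 stood at 0 CPM in each library untreated, at 0.276, 0.246 and 0.774 after 24 h and at 1.34, 0.672 and 2.01 after 72 h. In Iceland it stood at 2.94, 5.48 and 0.781 CPM untreated, at 0.185, 0.261 and 1.35 after 24 h and at 0.175, 0.717 and 0 after 72 h. These America-up members had 0 counts in all untreated America libraries, appeared there in each 72 h library, and were correlated with each other in a set of 4. Unigene0000880 held 15.5, 9.69 and 5.32 CPM in untreated America leaves, 3.13, 0.573 and 1.26 after 24 h of PEG there and 1.60, 2.11 and 6.19 after 72 h. Untreated Iceland leaves held 0 CPM in each library, those at 24 h 0, 8.19 and 20.8 and those at 72 h 8.22, 5.32 and 0.721. The level of Unigene0032336 in America was 83.4, 13.9 and 0.0917 CPM untreated, 13.5, 3.03 and 3.58 at 24 h and 2.10, 1.63 and 3.54 at 72 h. Its Iceland level was 0, 0.192 and 0 CPM untreated, 8.22, 1.39 and 0 at 24 h and 1.22, 0 and 8.56 at 72 h. Both of these Iceland-up members were almost absent from untreated Iceland. In untreated America Unigene0000880 was present in each library, and Unigene0032336 was near 0 in replicate 3.

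Against untreated leaves, levels at 24 h are read beside those at 72 h, with which they share the untreated libraries. In America the median difference in L from untreated was -1.32 at 24 h and -1.54 at 72 h for Iceland-up members, and 0.79 and 1.42 for America-up members. In Iceland it was 0.81 and 2.45 for Iceland-up members and -1.38 and -1.48 for America-up members. At 24 h 39 members passed in America (background 31.1%), 32 of them Iceland-up and lower, and 37 in Iceland (background 40.3%), 28 of them America-up and lower. In Iceland 8 Iceland-up members were higher and 1 was lower. In the test of the difference between the 24 h responses 7 members passed (background 0.861%). That count was 2 without untreated America replicate 2 (background 0.0876%). It was 4 without America 24 h replicate 1 or untreated Iceland replicate 2 (background 0.369% and 0.264%). It was 12 without untreated America replicate 1 (background 1.32%) and 21 without untreated Iceland replicate 3 (background 2.87%). Without America 24 h replicate 1, 2 or 3 the America count was 15, 15 or 12 (background 25%, 25.6% and 20.2%). The Iceland count was 22 without untreated Iceland replicate 1 or without Iceland 24 h replicate 2 (background 29.2% and 31.3%).

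The unigenes named in these comparisons again varied within groups. For Unigene0032633, the America libraries gave 1.43, 0.376 and 0.458 CPM untreated, 79.6, 7.12 and 29.8 at 24 h and 11.1, 3.84 and 11.0 at 72 h. The Iceland libraries gave 2.02, 0.672 and 268 CPM untreated, 9.70, 34.1 and 23.7 at 24 h and 37.8, 36.4 and 44.9 at 72 h. This America-up member was higher in each America library under PEG than in any untreated one, while its untreated Iceland mean rested on replicate 3. Untreated Iceland replicates 1 and 2 lay below all Iceland libraries at 72 h, so its lower level at 72 h in Iceland rested on that 1 library. Untreated America leaves held 24.8, 9.40 and 0 CPM of Unigene0035163, followed by 0 in each library at 24 h and 0, 3.84 and 1.21 at 72 h. Iceland leaves had 0 CPM in each library untreated, 2.13, 1.57 and 0 after 24 h and 0.262, 1.02 and 5.67 after 72 h. In America Unigene0003264 stood at 0.0793, 20.1 and 29.7 CPM untreated, at 0, 3.77 and 5.71 after 24 h and at 0.924, 0 and 6.51 after 72 h. In Iceland it stood at 0, 0.0961 and 0 CPM untreated, at 11.9, 8.89 and 0.625 after 24 h and at 0.175, 2.46 and 3.60 after 72 h. The higher levels of these Iceland-up members in untreated America came from 2 of 3 libraries each. Unigene0014482, Unigene0074925, Unigene0000880, Unigene0073823 and Unigene0076334 were also named here, with the values given above.

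Between 24 h and 72 h 1 member passed in America (0.68%, background 1.41%). In Iceland 8 passed (5.4%, background 3.72%), 3 of them Iceland-up and higher and 5 America-up and lower. The rule used the 72 h libraries, so these counts describe the members. The median difference in L between 72 h and 24 h was 1.86 in Iceland for Iceland-up members and 0 in America, and 0.77 in America for America-up members and -0.05 in Iceland. Unigene0001699 held 8.81, 5.45 and 4.49 CPM in untreated America leaves, 5.44, 4.99 and 1.35 after 24 h of PEG there and 9.99, 14.6 and 21.7 after 72 h. Untreated Iceland leaves held 8.66, 11.3 and 11.1 CPM, those at 24 h 3.42, 2.79 and 3.02 and those at 72 h 2.53, 2.66 and 2.25. Unigene0001699 was the 1 member that passed in America, where its 72 h libraries were above all others, and it did not pass without America 24 h replicate 1 or 2 or America 72 h replicate 2 or 3. In Iceland its PEG libraries were all below the untreated ones. The level of Unigene0015421 in America was 11.7, 7.05 and 0.825 CPM untreated, 5.71, 2.78 and 2.71 at 24 h and 1.26, 1.54 and 0.482 at 72 h. Its Iceland level was 3.28, 3.17 and 2.05 CPM untreated, 0.462, 0.0871 and 1.04 at 24 h and 4.81, 4.91 and 12.3 at 72 h. Its Iceland groups did not overlap, and lay in the order 24 h, untreated, 72 h. The Iceland count of 8 was 2, 0 or 9 by edgeR without Iceland 24 h replicate 1, 2 or 3 (background 1.39%, 1.12% and 1.79%). Without Iceland 24 h replicate 2, 50 members had an unadjusted p under 0.05, against 5694 of 32885 unigenes. The count was 5, 1 or 3 without Iceland 72 h replicate 1, 2 or 3 (background 0.706%, 0.859% and 3.69%). The Iceland-up Unigene0069552 and the America-up Unigene0054348 and Unigene0017352 were also named in this comparison.

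At 72 h itself, which the rule used, the origins differed in 55 members by edgeR (37.2%, background 13.2%). Iceland was higher in 34 Iceland-up members and lower in 21 America-up members. The count was 14, 19 or 21 without America 72 h replicate 1, 2 or 3 (background 5.82%, 6.67% and 6.69%). It was 29, 13 or 38 without Iceland 72 h replicate 1, 2 or 3 (background 7.31%, 4.84% and 12.4%). The median difference in L between Iceland and America was -1.56 untreated, 0.53 at 24 h and 2.60 at 72 h for Iceland-up members, and 1.20, -0.89 and -2.07 for America-up members. The rule made this difference shift between untreated leaves and 72 h in every member. The change of sign in both medians therefore describes the choice of members. The 24 h medians lay between, and nothing is read from that order.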

How the data were processed

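Messenger RNA of 18 leaf libraries was measured by sequencing, in 6 groups of 3. The deposited table gives, per unigene and library, a whole-number read count and an FPKM value, scaled for unigene length and library depth, both made by the authors. RSEM 1.3.1, cutadapt 1.18 and bcl2fastq 2.0.1 are listed, without role or order, per the submitters' processing notes, and an assembly method is not given in the sources used here. FPKM served only to work out unigene length. Every sample column was mapped, and 5703 unigenes without a count were left out.

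CPM was counts over the library total, with a pseudocount of 1 in L. Tests were edgeR 4.0.16 quasi-likelihood fits in R 4.3.3 on the deposited counts, with TMM scaling, edgeR's filter on low counts and Benjamini-Hochberg adjustment over all unigenes tested, passing at 0.05. The 24 h comparison of origins used its 6 libraries, and the others all 18. Alternatives were DESeq2 1.42.0, limma-voom (limma 3.58.1), DESeq2 size factors, no filter, a replicate block, fewer or more groups in the fit, other settings of the rule and each library left out. The scripts were tested on simulated data.

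The members and lists were chosen with earlier results of these data known, and the sets and their limits after their values were seen. Named unigenes were, per direction and at most 2 each, the first in the order of the smaller of the absolute responses, the first of these parted and passing in both origins, the highest in mean CPM, the most extreme fold changes among members that passed each comparison, and those at the limit of the rule. Counts of 2 libraries of a group differed beyond sampling noise in all 18 pairs within groups. No sequences or annotations were used here.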

Additional observations from a re-analysis of the deposited data

Results flagged for a closer look

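Responses that differ between the origins at 72 h are what chose the members, so the test of that difference only restates the rule, and 20 of the 148 members passed it against 0.693% of all unigenes. Among the named unigenes the fitted difference, Iceland minus America on the log2 scale, was 16.84 for Unigene0067652, 13.98 for Unigene0069552, 8.38 for Unigene0000830, 4.35 for Unigene0013575, 4.31 for Unigene0060216 and 3.94 for Unigene0035869, all Iceland-up. Among America-up members it was -10.47 for Unigene0007334, -10.28 for Unigene0003711, -7.73 for Unigene0011604, -6.91 for Unigene0014482, -6.31 for Unigene0037649 and -3.34 for Unigene0001699. Values of unigenes with a group at 0 counts depend on the prior count of the fit and are no bound on the difference. The value of Unigene0067652 rests in untreated America on replicate 3, with 0, 0.0940 and 58.7 CPM in replicates 1 to 3.

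The responses at 24 h share the untreated libraries with the rule. Their difference between the origins passed in 7 members, against 0.861% of all unigenes. It was 12.58 for Unigene0000880, which had 0 counts in untreated Iceland, 3.50 for Unigene0060216 and -7.47 for Unigene0037649.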

How the results depend on the processing

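The number of unigenes that meet the rule depended on its settings. It was 144 Iceland-up and 144 America-up with a pseudocount of 0.5, 12 and 11 with 5, 28 and 19 at a threshold of 1.5, 12 and 6 at 2, and 64 and 122 with medians in place of means, where 24 of the 71 Iceland-up and 43 of the 77 America-up members, 67 of 148, still met the rule. With 1 library left out it ranged from 38 to 106 Iceland-up and from 49 to 127 America-up, and leaving out untreated America replicate 3 and untreated Iceland replicate 1 together, chosen after seeing the data, gave 41 Iceland-up and 93 America-up, with 31 and 40 of the members, 71 of 148, among them.

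For members that passed at 24 h between origins, the count of 15 of 63 tested (background 11.0%) was 62 of 143 with no filter on low counts (background 7.36%). At 72 h against untreated it was 75 in America with no filter (background 12.7%). In Iceland it was 42 with limma-voom (background 44.7%) and 57 of 81 tested with only the groups compared (background 44.6%). For the difference of 72 h responses it was 110 with no filter, 2 with limma-voom, 86 with DESeq2 and 8 with only the groups compared. The backgrounds there were 0.985%, 0.0486%, 4.47% and 0.142%, against 0.693%. At 24 h against untreated the count was 61, 21 and 24 in America with no filter, limma-voom and only the groups compared (background 10.6%, 30.2% and 34.4%). In Iceland it was 58, 15 and 13 (background 14.6%, 38.6% and 34.8%). With only the groups compared 68 members were tested in America and 59 in Iceland. For the difference of 24 h responses the count was 46, 3, 49 and 2 with no filter, limma-voom, DESeq2 and only the groups compared. The backgrounds there were 0.772%, 0.223%, 4.79% and 0.0563%, and 112 members were tested with only the groups compared. Between 72 h and 24 h the count was 2, 5 and 3 in America with no filter, DESeq2 and only the groups compared (background 0.653%, 4.81% and 0.801%). In Iceland it was 26, 1, 20 and 5 with no filter, limma-voom, DESeq2 and only the groups compared (background 1.96%, 3.37%, 8.48% and 4.49%). With only the groups compared 93 members were tested in America and 77 in Iceland. Between untreated origins the count was 54, 15 and 39 with no filter, limma-voom and DESeq2 (background 2.61%, 3.65% and 8.95%). At 72 h it was 103, 29 and 87 of 117 tested with no filter, limma-voom and only the groups compared (background 6.4%, 14.2% and 19.3%). The cause was not tested.

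Samples with the same replicate number shared only a number: their deviations correlated at -0.144 to 0.165 over 45 pairs. With the replicate number as a block 29 members passed at 72 h in America (background 35.2%) and 11 for the difference of 72 h responses (background 0.375%). At 24 h 24 passed in America (background 29.4%), and between 72 h and 24 h 2 in Iceland (background 2.74%). Between origins at 24 h 11 of 63 passed (background 3.99%).

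With 1 library left out, the counts that passed ranged from 5 to 20 at 24 h between origins, 22 to 52 and 55 to 91 at 72 h in America and Iceland, 2 to 46 for the difference of 72 h responses, 12 to 39 and 22 to 47 at 24 h in America and Iceland, 2 to 21 for the difference of 24 h responses, 0 to 1 and 0 to 9 between 72 h and 24 h, 9 to 33 between untreated origins and 13 to 38 between origins at 72 h. The background moved in the same refits. It ranged from 0.0153% to 2.23% for the difference of 72 h responses and from 2.36% to 9.51% at 24 h between origins. On L at 24 h the counts ranged from 19 to 28 for Iceland-up and 11 to 38 for America-up members, with 14 for America-up members by medians. The 72 h log2 fold change of Unigene0067652 in America ranged from -10.93, without America 72 h replicate 3, to 0.0734, without untreated America replicate 3. Of the values of named unigenes, 267 kept direction and side of the threshold under other settings, 33 no longer passed and 2 newly passed. With 1 library left out, 194 kept both, 73 no longer passed, 2 newly passed and 1 reversed. A level under 0.238 to 0.312 CPM in 1 library could not be told from 0.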

Other observations

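The profiles of the sets were also found outside the members. Over all 18 libraries, 58 unigenes correlated at 0.95 or more with the mean profile of set 1, of which 28 were in the set. For set 2 the number was 24, of which 17 were in the set, for set 3 it was 14 with 6 in the set, and for set 4 it was 19 with 9 in the set. For sets 5 and 6 it was 6 each, with 5 in the set. These numbers describe these libraries and rest on profiles that the rule helped to choose.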
